A study of Mus musculus with 4 samples.

Results

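The comparison asked which transcripts differed between leukocytes of tumours given a STING agonist and an LTβR agonist together (the combination) and leukocytes of tumours given the LTβR agonist alone. It rested on 5333 cells of the combination library and 7147 cells of the LTβR agonist library, out of 23011 cells in the 4 libraries of the series. Cells were assigned to a library by the number at the end of the barcode, and were kept when they carried 300 to 5000 detected genes and at most 6% of mitochondrial molecules. All mice were young adult male C57BL/6 animals carrying subcutaneous tumours of KPC cells, a pancreatic cancer line derived from mice with oncogenic alleles under a pancreas-restricted Cre. The STING agonist was ADU-S100, a cyclic dinucleotide injected once into the tumour, and the LTβR agonist was the activating antibody 4H8, given repeatedly into the peritoneum. The animals of the combination group thus received the same antibody as those of the LTβR agonist group, and the untreated and STING agonist libraries received no antibody. Per the study's methods, tumours were harvested days after the last antibody dose, and longer still after the single ADU-S100 injection. Responses in the first hours after that injection were thus not sampled. The methods state that each group's tumours were combined before dissociation and that live CD45-positive cells were sorted for droplet sequencing.

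Each group was 1 library, so that no spread between animals could be measured and no test was made. Values are unique molecular identifiers (UMIs) summed over the cells of a class and scaled to the same total in every class and library, as counts per 1000000 UMIs (CPM), with ratios on the log2 scale after adding 10 CPM. A gene was called higher or lower when this ratio passed 1.5-fold and the exact Poisson 95% intervals of both CPM values did not overlap. Genes were assessed in a class when they reached 50 CPM in either library and 50 UMIs over both. The highest and lowest ratios of a class are given among broadly detected genes, which had a UMI in at least 20 cells of the higher library and at most 50% of that library's UMIs in its 10 highest cells. All intervals cover counting error only, and a count of called genes describes these libraries and not the treatments.

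STING is a sensor of cyclic dinucleotides whose activation leads to transcription of type I interferons and NF-κB target genes. Interferons bind receptors on neighbouring cells and act through transcription factors that enter the nucleus. Type I interferons favour antiviral genes such as the Ifit and Oas families, and interferon-γ from T and NK cells favours the guanylate-binding proteins (Gbp), the immunity-related GTPases (Irgm1, Iigp1) and the chemokine Cxcl9. LTβR, the lymphotoxin-β receptor, drives formation of lymphoid tissue mainly through stromal and myeloid cells. The receptor for the STING agonist and that for the antibody were themselves at similar levels in macrophages and monocytes of both libraries, the only class for which they are given. Tmem173, which encodes STING, was at 88.2 CPM in macrophages and monocytes of the combination and at 73.1 CPM in those of the LTβR agonist library (log2 ratio 0.24). Ltbr was at 57.6 and 53.0 CPM there (log2 ratio 0.10), and neither gene was called.

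The libraries were of similar depth. Kept cells had a median of 5877 UMIs in the combination and 5750 in the LTβR agonist library, and 6.78% and 5.99% of barcodes exceeded the mitochondrial limit. The libraries shared 61 barcode sequences, against 33 to 60 for the other pairs of libraries. Classes were gated on the number of marker genes with a UMI, and their own markers were each detected in at least 72.6% of B cells and in 31.9% to 90.7% of macrophages and monocytes. The gated plasma cells numbered 22 and 20, and only their share is given.

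Cell shares formed the frame for all expression values. B cells made up 9.32% of the combination library (497 cells, exact 95% interval 8.55 to 10.1%) and 2.20% of the LTβR agonist library (157 cells, 1.87 to 2.56%), a ratio of 4.24. CD8 T cells numbered 1011 and 815, with a ratio of their shares of 1.66, and made up 52.2% and 40.6% of T cells. Neutrophils were less frequent in the combination, at 1.13% (60 cells) against 4.77% (341 cells, ratio 0.236), and macrophages and monocytes made up 33.8% against 41.3% (ratio 0.820). Both lymphocyte classes were thus a larger part of the combination library, and both myeloid classes a smaller part. Regulatory T cells (Tregs), the Foxp3-positive suppressors, were 6.61% of T cells in the combination and 11.9% in the LTβR agonist library, and NK cells were 6.36% and 8.51% of all cells. CD4 T cells without Foxp3 (5.87% and 5.43%), DCs (2.10% and 2.69%) and plasma cells (0.413% and 0.280%) had ratios whose intervals included 1. Because shares within a library sum to a fixed total, a higher share of 1 class lowers the others. Among lymphocyte classes alone, the ratio for T cells was 0.964 and that for NK cells 0.557. Among myeloid classes alone, the ratio for macrophages and monocytes was 1.08.

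**Figure D1:**
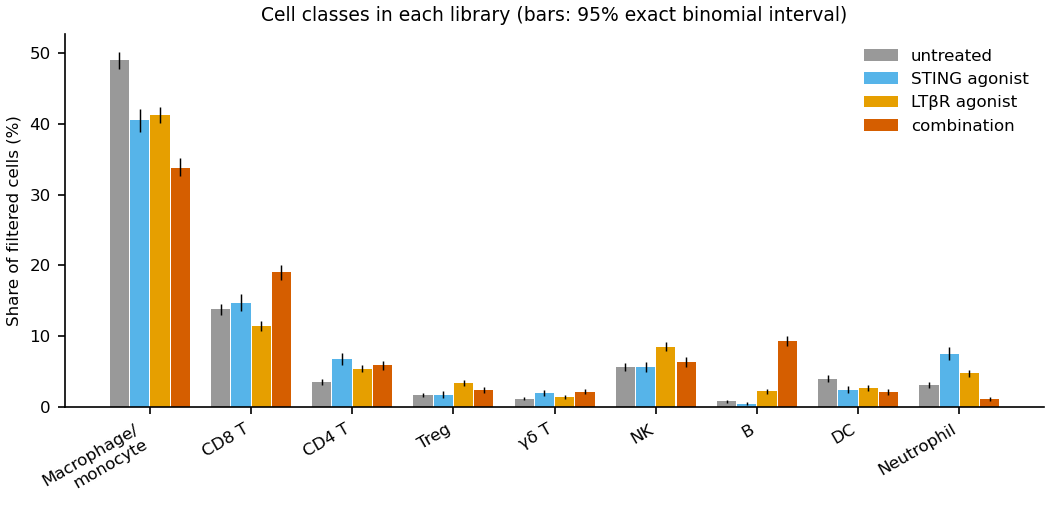
Share of filtered cells (%, vertical axis) by gated class in each of the 4 libraries, which the bar colours name; lines are exact 95% binomial intervals. B cells reached 9.32% in the combination against 2.20% in the LTβR agonist library, and neutrophils 1.13% against 4.77%.

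Between 2698 and 3849 genes were assessed in each of 8 classes. The fewest calls relative to genes assessed fell in macrophages and monocytes, the class with the most cells, and the most in neutrophils, the class with the fewest cells in the combination. The median log2 ratio of all assessed genes lay within 0.07 of 0 in every class. Of the 34 gene lists, the one for type I interferon-stimulated genes had its lowest median in CD4 T cells, and that for interferon-γ-induced GTPases had its highest medians in neutrophils (1.06), DCs (0.42) and macrophages and monocytes (0.40) and its lowest in CD4 T cells (-0.57).

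**Figure D2:**
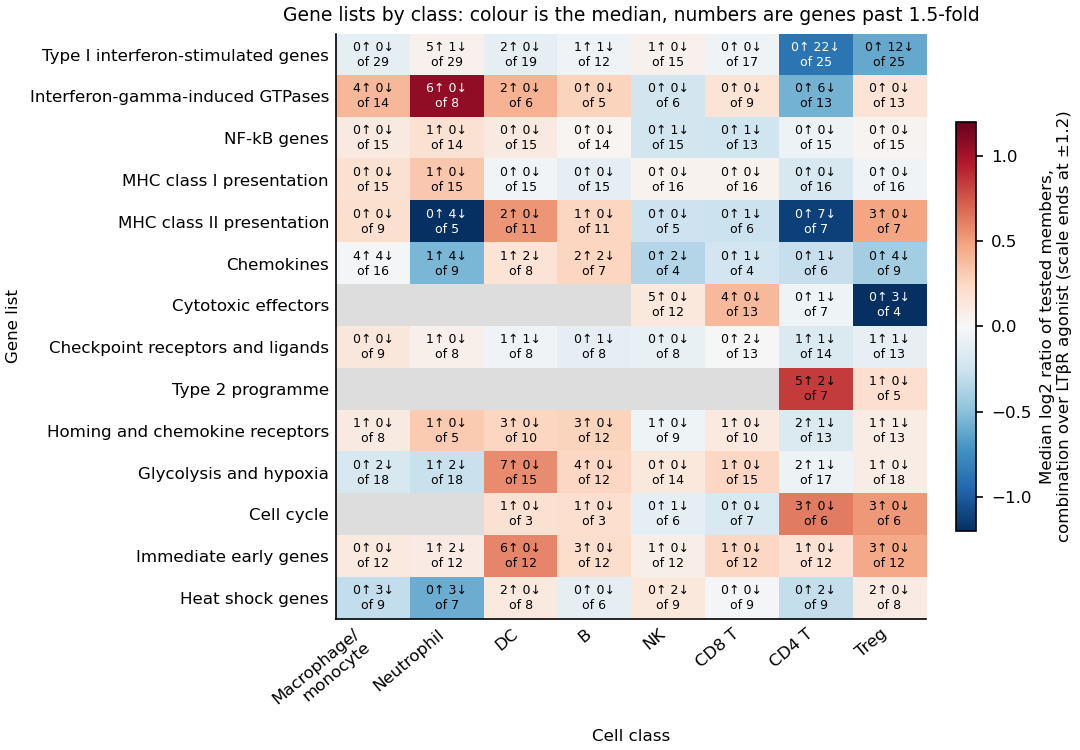
Median log2 ratio (colour, combination over LTβR agonist, scale ending at ±1.2) of the assessed members of 14 gene lists (rows) in 8 cell classes (columns), with the number of members past 1.5-fold higher (up arrow) and lower (down arrow) of those assessed; grey cells had under 3 members assessed. In the CD4 T column 22 of 25 type I interferon-stimulated genes were lower, and in the macrophage and monocyte column 0 of 29 were called.

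In macrophages and monocytes, genes of the interferon-γ response were higher in the combination while type I interferon-stimulated genes were at similar levels. Cxcl9, a chemokine that draws CXCR3-positive T cells, was at 523 CPM in the combination and 239 CPM in the LTβR agonist library (log2 ratio 1.10, counting interval 1.03 to 1.16), with a UMI in 39.1% and 25.0% of cells. The STING agonist library was at 554 CPM and the untreated library at 329 CPM, so that the LTβR agonist library held the lowest of the 4 values. Of 14 assessed interferon-γ-induced GTPases and their regulators, 4 were higher and 0 lower, and all 14 had ratios above 1. Over all assessed genes of this class 25 were higher (0.765%) and 21 lower (0.642%). The called members were Iigp1, an immunity-related GTPase (149 against 68.0 CPM), the guanylate-binding proteins Gbp2 (555 against 327 CPM) and Gbp5 (175 against 112 CPM), and the transcription factor Irf1 (304 against 182 CPM). For each of these called members the LTβR agonist library held the lowest of the 4 values. Gbp2 was at 855 CPM with the STING agonist and 584 CPM without treatment, above both libraries compared. With every cell thinned to 1000 UMIs the log2 ratios of Gbp2 and Gbp5 were 0.51 and 0.56, below the threshold. Of 29 assessed type I interferon-stimulated genes 0 were called in either direction, with a median log2 ratio of -0.11. Isg15, a ubiquitin-like modifier of that group, was at 1068 and 1157 CPM, and Ifit1 at 86.3 and 103 CPM.

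The 250 bases before the start site are given for 4 of these higher genes, Cxcl9, Gbp2, Gbp5 and Irf1. Iigp1, whose ratio was above those of Gbp2, Gbp5 and Irf1, had no usable entry among the promoter sequences. The letters GAAANNGAA, the core of the interferon-stimulated response element, and TTCNNNGAA, the core of the gamma-activated site of interferon-γ target genes, were searched on both strands, and their matches stand in capitals. A core of NF-κB sites, GGGNNTTCC, was searched as well and is not in capitals. Sequences are from RefSeq on GRCm38.p6, each 5′ to 3′ on the strand of its gene. The windows are chr5:92328080-92328329 (minus strand) for Cxcl9, chr3:142620413-142620662 (plus strand) for Gbp2, chr3:142496684-142496933 (plus strand) for Gbp5, and chr11:53769764-53770013 (plus strand) for the first of the Irf1 start sites listed.
Cxcl9: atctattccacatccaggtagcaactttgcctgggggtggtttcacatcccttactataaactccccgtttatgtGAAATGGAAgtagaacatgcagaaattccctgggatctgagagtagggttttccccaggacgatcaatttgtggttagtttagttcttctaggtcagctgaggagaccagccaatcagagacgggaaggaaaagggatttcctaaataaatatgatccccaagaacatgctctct
Gbp2: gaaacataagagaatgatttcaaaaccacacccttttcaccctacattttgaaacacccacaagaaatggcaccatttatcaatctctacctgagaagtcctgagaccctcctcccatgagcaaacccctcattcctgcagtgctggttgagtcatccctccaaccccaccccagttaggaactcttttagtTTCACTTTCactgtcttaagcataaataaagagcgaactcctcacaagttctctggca
Gbp5: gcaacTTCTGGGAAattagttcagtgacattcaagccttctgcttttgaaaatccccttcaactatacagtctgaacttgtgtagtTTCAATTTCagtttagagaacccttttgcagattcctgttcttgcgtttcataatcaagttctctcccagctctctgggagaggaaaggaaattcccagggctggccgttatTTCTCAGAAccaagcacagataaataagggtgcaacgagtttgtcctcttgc
Irf1: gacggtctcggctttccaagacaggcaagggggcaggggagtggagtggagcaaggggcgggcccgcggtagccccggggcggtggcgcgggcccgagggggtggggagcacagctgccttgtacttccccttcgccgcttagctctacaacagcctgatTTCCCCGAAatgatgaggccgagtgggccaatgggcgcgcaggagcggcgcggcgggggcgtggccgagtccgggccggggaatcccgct

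The first core matched from 175 to 167 bases before the Cxcl9 start, from 58 to 50 bases before that of Gbp2 and from 164 to 156 bases before that of Gbp5. The second core matched from 245 to 237 and from 52 to 44 bases before the Gbp5 start and from 90 to 82 bases before that of Irf1. The second Irf1 start listed (window chr11:53770223-53770472) held neither. The letters GGGNNTTCC had 2 matches in the Cxcl9 window and 0 in the others. Longer and variant forms of NF-κB sites were not searched, so 0 matches does not show that a window lacks such sites. Among 32851 RefSeq promoters of the same length, 7.13% held the first core, 7.02% the second and 4.98% the NF-κB core. A match describes the letters of the window and is not a measured site.

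Signalling and chemokine genes outside that list also differed. Socs1, the feedback inhibitor of interferon receptors, was at 158 CPM in the combination and 78.8 CPM in the LTβR agonist library (log2 ratio 0.92). Klf2, a transcription factor that restrains inflammatory activation, was at 244 and 121 CPM (0.95). Ccl5, which attracts T cells and monocytes, was at 701 and 382 CPM (0.86). In the STING agonist and untreated libraries Ccl5 was at 1224 and 1506 CPM, above both. Ccl8, a further chemokine, was at 102 and 44.5 CPM (1.04), with 48.7% of its UMIs in the combination in 10 cells. These 4 were higher in the combination. Chil3 (414 and 201 CPM) and Mrc1 (184 and 99.6 CPM), both used as markers of alternative activation, were called higher as well, but 48.4% of the Chil3 UMIs of the combination lay in 10 cells and its log2 ratio was 0.19 without them.

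Genes at lower levels in these cells began with Spp1, which encodes osteopontin, at 316 CPM in the combination and 933 CPM in the LTβR agonist library (log2 ratio -1.53). The untreated and STING agonist libraries stood at 324 and 453 CPM, so that the LTβR agonist library was the highest of the 4. Slpi, an inhibitor of neutrophil elastase, was at 90.1 and 270 CPM (-1.48). The inducible heat shock genes Hspa1a (66.7 and 177 CPM) and Hspa1b (74.0 and 188 CPM), Cdh1 (42.7 and 99.3 CPM) and the hypoxia- and stress-induced Ddit4 (74.5 and 157 CPM) were lower too. Cdh1, which encodes E-cadherin, was the only assessed gene of the tumour epithelium list in this class. Among chemokines Ccl24 (131 and 257 CPM), Cxcl3 (44.5 and 90.7 CPM) and Ccl3 (68.9 and 121 CPM) were lower. Of 16 chemokines assessed, 4 were higher and 4 lower. Arg1 (1246 and 1533 CPM) and Nos2 (204 and 236 CPM), the enzymes that compete for arginine, were not called.

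The interferon-γ pattern was larger in monocytes than in macrophages, in a split made after seeing the data. Cells with more monocyte than macrophage marker genes (Ly6c2 monocytes) made up 56.4% of this class in the combination and 64.4% with the LTβR agonist, and C1q macrophages 33.0% and 25.8%. In Ly6c2 monocytes 7 of 15 interferon-γ-induced GTPases were higher, where 0.768% of all genes assessed were higher and 1.17% lower. Cxcl9 was at 581 and 202 CPM (log2 ratio 1.48), Gbp2 at 715 and 382 CPM (0.89) and Irf1 at 393 and 220 CPM (0.81). Arg1 was lower in these monocytes, at 662 and 1280 CPM (-0.94). In C1q macrophages the same genes differed less, and Cxcl9 was at 474 and 320 CPM (0.55, not called), Irf1 at 174 and 121 CPM (0.49) and Arg1 at 2062 and 1962 CPM (0.07). There 1 of 12 interferon-γ-induced GTPases was higher, and 6 of 26 type I interferon-stimulated genes were lower, among 1.78% of genes higher and 1.27% lower. Those 6, named after their values were seen, were Isg15 (519 and 817 CPM), Ifi27l2a (1358 and 2133 CPM), Rsad2 (111 and 192 CPM), Usp18 (45.0 and 84.8 CPM), Ifit1 (39.1 and 69.7 CPM) and Ifit3 (40.3 and 72.4 CPM). Spp1 was lower in both subsets (205 and 697 CPM in monocytes, 462 and 1323 CPM in macrophages). The difference between the subsets was not tested. Ccl8, Chil3 and Mrc1 were not higher within the monocytes, where their log2 ratios were -0.04, -0.26 and -0.85. Mrc1 is 1 of the genes that split the subsets.

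**Figure D3:**
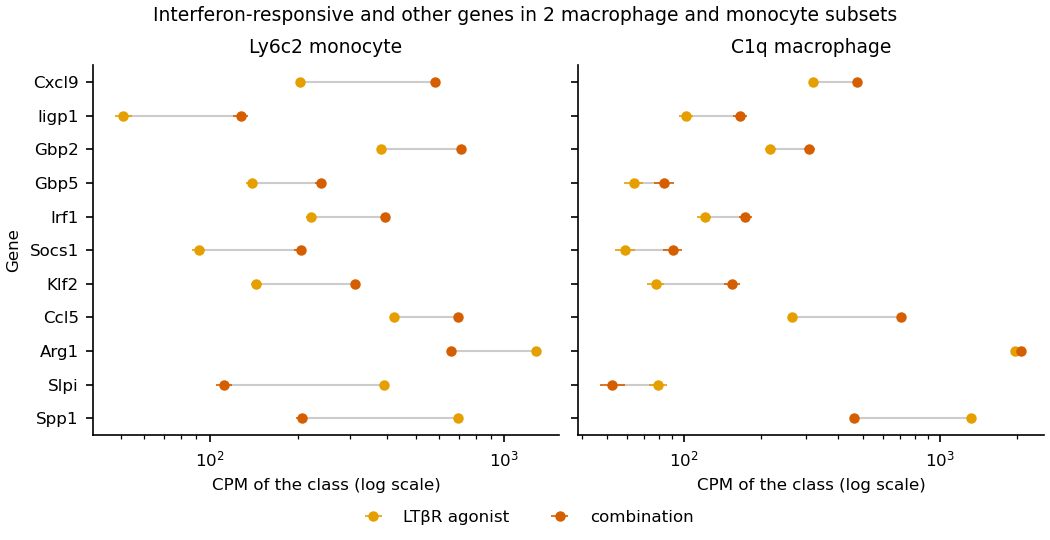
CPM (log scale, horizontal axis) of 11 genes in Ly6c2 monocytes (left) and C1q macrophages (right) of the LTβR agonist and combination libraries; lines through points are exact Poisson 95% intervals, mostly shorter than the points. Cxcl9 lies at 581 against 202 CPM in the monocytes and at 474 against 320 CPM in the macrophages, and Spp1 is lower in the combination in both.

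In CD8 T cells, the killing protease Gzmb was higher in the combination, and Tox, a transcription factor of chronic antigen stimulation, was lower. Over all genes assessed, 30 were higher (0.864%) and 51 lower (1.47%). Gzmb was at 1889 CPM in the combination and 1160 CPM in the LTβR agonist library (log2 ratio 0.70), with a UMI in 64.6% and 61.3% of cells. In the STING agonist and untreated libraries Gzmb was at 2305 and 2168 CPM, above both. Of 13 cytotoxic effectors assessed, 4 were higher and 0 lower, with a median log2 ratio of 0.39. The other 3, Gzmd, Gzme and Gzmf, rested on few cells, with a UMI in 3.76% to 7.42% of cells in the combination. Prf1, which encodes perforin, was at 771 and 585 CPM, Gzma at 274 and 189 CPM and Ifng, the gene for interferon-γ itself, at 298 and 269 CPM, and none of them was called. The log2 ratio of Gzmb was 0.51 without cells carrying 2 markers of a second class and 0.55 with thinned cells, both below the threshold.

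The list for costimulators of T cells also holds cytokine receptor subunits. Of its 11 members assessed in CD8 T cells, 2 were higher and 0 lower, both of them such subunits. Il12rb2, a subunit of the interleukin-12 receptor, was at 192 and 108 CPM (log2 ratio 0.78) and was detected in 54.1% and 35.2% of cells. Il2ra, the interleukin-2 receptor α chain, was at 98.7 and 61.3 CPM (0.61), and Irf4, a factor induced by antigen receptor signals, at 81.2 and 46.7 CPM (0.69). With thinned cells the 3 ratios were 0.56, 0.17 and 0.54, all below the threshold. The 5 highest ratios among broadly detected genes included Zbtb32 (93.5 and 36.4 CPM), a zinc finger repressor, and Styk1 (151 and 65.9 CPM), a receptor-like kinase. Serpine2 (131 and 57.6 CPM), a protease inhibitor, Spp1 (log2 ratio 1.05) and Areg (84.8 and 37.1 CPM), an epidermal growth factor receptor ligand, completed them. Spp1 was called higher in CD4 T cells as well (0.94), the reverse of its direction in macrophages and monocytes (-1.53). In the 4 libraries Zbtb32, Styk1 and Serpine2 were lowest with the LTβR agonist, and in the STING agonist and untreated libraries they stood at 76.1 and 77.8, 172 and 170, and 242 and 189 CPM.

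Tox was at 265 CPM in the combination and 566 CPM in the LTβR agonist library (log2 ratio -1.07, counting interval -1.18 to -0.96), with a UMI in 54.5% and 70.2% of cells. It stood at 358 CPM with the STING agonist and 525 CPM without treatment. The checkpoint receptor Pdcd1 was at 472 and 350 CPM and Havcr2 at 315 and 222 CPM in the combination and LTβR agonist libraries, with neither called, and Tcf7, a factor of memory and stem-like cells, was at 81.6 and 81.4 CPM. The lowest ratios among broadly detected genes were those of Trerf1 (43.0 and 169 CPM), Trbc1 (128 and 317 CPM), Ikzf2 (152 and 368 CPM), Gm47283 (47.4 and 121 CPM) and Tcrg-C2 (28.4 and 70.6 CPM). Ikzf2 encodes Helios, a factor of regulatory and innate-like T cells, and Trbc1 and Tcrg-C2 are constant genes of the T cell receptor β and γ chains. The near-identical Trbc2 and the other Tcrg constant genes can share reads with them, and clonal makeup was not measured here. Cd244a, a receptor of exhausted and NK cells, was at 36.7 and 64.2 CPM (-0.67). S100a9, a neutrophil alarmin, had 0 UMIs in CD8 T cells of the combination. The limit that a count of 0 allows there is 0.402 CPM, at least 215-fold below the 86.4 CPM of the LTβR agonist library. In that library neutrophils were more frequent, and 10 cells held 97.0% of the S100a9 UMIs. Its log2 ratio of -3.27 was -0.54 without cells carrying 2 markers of a second class and -0.34 without the 10 highest cells. The fold thus describes a few cells.

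In NK cells, the granzyme gene Gzmc was higher in the combination and the chemokine gene Ccl3 lower, and Gzmb and Ccl5 were just past the threshold. The counts were 28 genes higher (0.790%) and 26 lower (0.734%). Gzmc was at 1985 and 888 CPM (log2 ratio 1.15), detected in 23.3% and 13.7% of cells, and Gzmb, named after its value was seen, at 1951 and 1287 CPM (0.60). The ratio of Gzmb was 0.36 both with thinned cells and without the 10 highest cells, and 61.4% of the Gzmc UMIs of the combination lay in 10 cells, without which its ratio was 1.01. Of 12 cytotoxic effectors 5 were higher, but Gzmd and Gzme lay almost wholly in 10 cells. The major effectors Gzma (4064 and 4400 CPM) and Prf1 (524 and 528 CPM) were not called. Ccl5 was at 3901 and 5922 CPM (-0.60), the reverse of its direction in macrophages and monocytes, and Ccl3 at 66.2 and 139 CPM (-0.97). With thinned cells Ccl5 was at -0.39, below the threshold. Nfkbiz, an inhibitor-like protein induced by NF-κB, was at 184 and 290 CPM (-0.63). The highest ratios among broadly detected genes were those of Ly6c2 (545 and 239 CPM), Klf2 (414 and 222 CPM) and S100a4 (283 and 153 CPM), genes linked to circulating and mature lymphocytes, with Eno1b and the non-coding Snhg1. The lowest among them beside Ccl3 were Gm47283 (57.5 and 114 CPM), Kcnip3, Rap1gap2 and Mef2c. Summed CPM of the 6 neutrophil markers in NK cells was 2.55 in the combination and 174 in the LTβR agonist library.

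**Figure D4:**
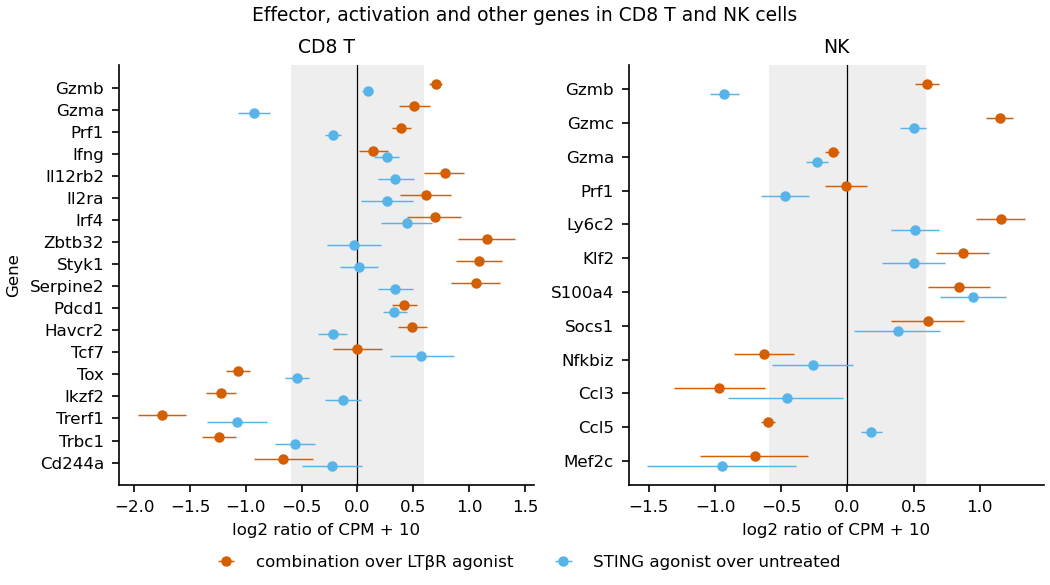
Log2 ratio of CPM + 10 (horizontal axis) for genes (rows) in CD8 T cells (left) and NK cells (right), for the combination over the LTβR agonist and, from 2 other libraries, the STING agonist over untreated; lines are counting intervals and the grey band spans 1.5-fold in either direction. For the combination, Gzmb lies at 0.70 in CD8 T cells and 0.60 in NK cells, and Tox at -1.07.

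In CD4 T cells without Foxp3, type I interferon-stimulated genes were lower in the combination as a group, and genes of type 2 helper cells were mostly higher. Of 25 assessed type I interferon-stimulated genes, 22 were lower and 0 higher, with a median log2 ratio of -0.88. Over all genes assessed, 63 were higher (1.73%) and 167 lower (4.58%), with a median near 0. Isg15 was at 192 CPM in the combination and 364 CPM with the LTβR agonist, and at 310 and 365 CPM with the STING agonist and without treatment. The members with the lowest ratios were Slfn5, a Schlafen family gene (92.4 and 230 CPM), Ifi204, a DNA sensor (20.1 and 54.4 CPM), the exonuclease Isg20 (70.2 and 155 CPM) and Ifit1, which binds viral RNA (39.6 and 91.2 CPM). Of 13 interferon-γ-induced GTPases 6 were lower and 0 higher, among them Gbp6 (65.4 and 139 CPM), Igtp (92.9 and 154 CPM), Gbp7 (72.3 and 121 CPM) and Irgm1 (52.3 and 86.8 CPM). The direction was thus opposite to that in macrophages and monocytes of the same libraries, where 4 such genes were higher, although the difference between classes was not tested.

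Transcripts of myeloid cells moved with these genes. The summed level of the 6 macrophage and monocyte markers in CD4 T cells was 133 CPM in the combination and 246 CPM with the LTβR agonist, and 1 and 0 of the markers were at 0. The MHC class II genes H2-Ab1 (244 and 608 CPM), H2-Eb1 (186 and 532 CPM) and Cd74 (803 and 1833 CPM) were lower as well, with 79.7% to 89.0% of their UMIs in 10 cells. Cells with 2 markers of a second class were 7.35% and 9.02% of the CD4 T cells. Without them 22 of 23 type I interferon-stimulated genes were lower, with a median log2 ratio of -1.07, while the ratio of H2-Ab1 was 0.02. With every cell thinned to 1000 UMIs, 16 of the genes could be assessed and 6 were lower.

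**Figure D5:**
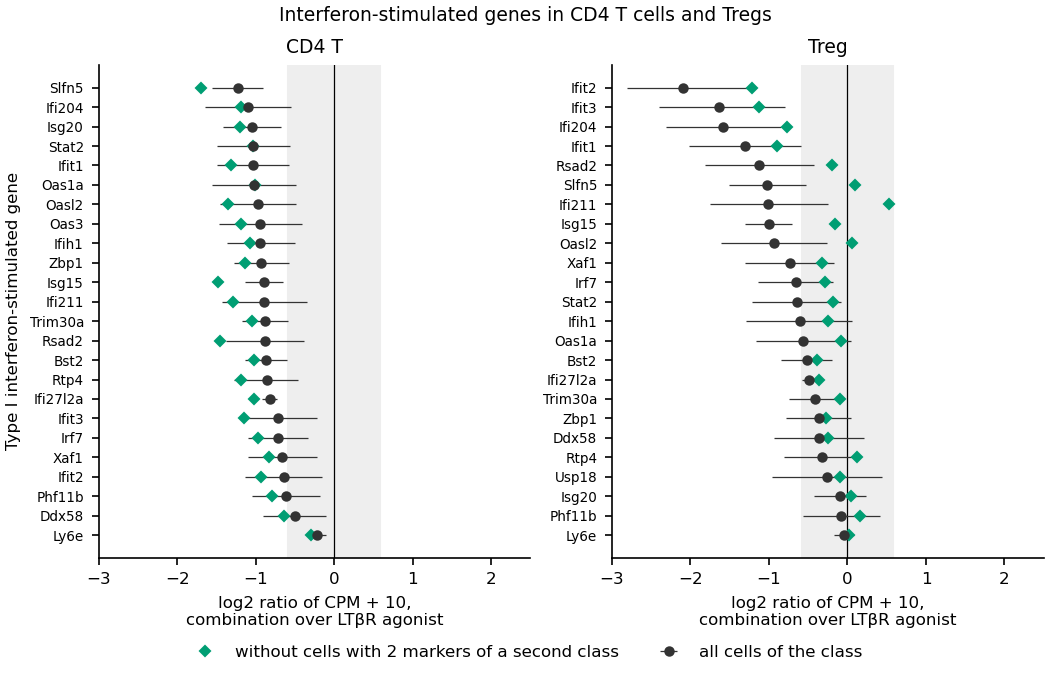
Log2 ratio of CPM + 10 (horizontal axis, combination over LTβR agonist) of the assessed type I interferon-stimulated genes (rows, without 1 that is not reported here) in CD4 T cells (left) and Tregs (right), for all cells of the class (circles, with counting intervals) and without cells carrying 2 markers of a second class (diamonds); the grey band spans 1.5-fold in either direction. In CD4 T cells both sets lie to the left of the band for most genes, and in Tregs most diamonds lie inside it.

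Of 7 genes of the type 2 programme assessed in CD4 T cells, 5 were higher and 2 lower. Il1rl1, the receptor of interleukin-33, was at 242 CPM in the combination and 80.9 CPM in the LTβR agonist library (log2 ratio 1.47), with a UMI in 22.7% and 12.6% of cells. It was at 17.0 and 60.4 CPM with the STING agonist and without treatment, so that the combination held the highest of the 4 values. Gata3, the master factor of type 2 helper cells, was at 198 and 103 CPM (0.87), Areg at 498 and 273 CPM (0.84), and the cytokine genes Il5 and Il4 at 67.6 and 19.6 CPM and at 50.7 and 26.5 CPM. Gata3, Areg and Il4 were named after their values were seen. These higher members also rested on few cells or were sensitive to depth. In the combination 10 cells held 79.7% of the UMIs of Il5, 83.3% of those of Il4 and 57.9% of those of Areg. With thinned cells the log2 ratios were 0.38 for Gata3, 0.40 for Areg and 0.54 for Il4, all below the threshold, and without cells of a second class that of Il4 was 0.14. Those of Il1rl1 and Il5 were 1.12 and 1.05 with thinned cells. Pparg, a nuclear receptor that type 2 cells use, had the highest ratio among broadly detected genes of the class, at 109 and 22.1 CPM (1.89), and was detected in 20.4% and 5.15% of cells. The 2 lower members were Il13 (127 and 361 CPM) and Penk (462 and 888 CPM), which were detected in more cells of the combination (11.8% against 5.15% and 14.1% against 7.73%) and had 98.0% and 93.7% of their LTβR agonist UMIs in 10 cells. Without those cells their log2 ratios were 1.27 and 1.22.

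Genes of other helper programmes lay on both sides. Il17a, the cytokine of type 17 cells, was at 19.5 CPM in the combination and 202 CPM with the LTβR agonist, detected in 2.56% and 9.79% of cells, and Il1r1, which such cells carry, at 16.4 and 65.7 CPM. Cxcr3, the receptor for Cxcl9, was at 38.5 and 67.2 CPM (log2 ratio -0.67). Pdcd1, carried by activated and follicular helper cells, was at 297 and 140 CPM (1.03), and Tcf7 at 207 and 120 CPM (0.75). Of 6 cell cycle genes 3 were higher, Mki67 (149 and 68.2 CPM), Tubb5 (340 and 202 CPM) and Stmn1 (126 and 73.1 CPM), and 78.4% of the Mki67 UMIs of the combination lay in 10 cells. With thinned cells Tubb5 was at 0.02 and Tcf7 at 0.22, below the threshold, while Pdcd1 was at 1.01. Hspa1a was at 17.4 and 179 CPM. Among broadly detected genes, the lowest ratios beside Il1r1 and Slfn5 were those of Rap1gap2, Atrnl1 and March3, and the highest beside Pparg and Il1rl1 those of Dhx40, Ndrg3 and Ero1l.

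In Tregs, 74 genes were higher (1.92%) and 129 lower (3.35%), from 128 cells of the combination and 239 of the LTβR agonist library. Type I interferon-stimulated genes were lower in 12 of 25 members assessed (median log2 ratio -0.61), led by Ifit2 (8.40 and 68.1 CPM), Ifit3 (10.8 and 54.6 CPM), Ifi204 (20.4 and 81.6 CPM) and Ifit1 (25.2 and 77.1 CPM). Macrophage and monocyte markers summed to 295 and 487 CPM in these cells. Without cells with 2 markers of a second class, 1 of 18 was lower and the median was -0.17. Il10, the gene for an immunosuppressive cytokine, was at 60.0 and 129 CPM (log2 ratio -0.99), and Itgae, an integrin of tissue-resident cells, at 174 and 282 CPM (-0.67). Areg, which Tregs use in tissue repair, was at 2227 and 1386 CPM (0.68), and Socs1 at 266 and 171 CPM (0.61). Without the 10 highest cells Areg was at 0.51 and Socs1 at 0.28, below the threshold. The highest ratios among broadly detected genes were those of Dda1, Ctla2a (432 and 242 CPM), Cops6, Dhx36 and Sytl3. The lowest were those of Ifi206 (44.4 and 119 CPM), Maml1, Ifi209 (101 and 220 CPM), Hmgcs1 and Setbp1. With thinned cells the ratios of Ifi206 (-0.10), Ifit1 (-0.20) and Ctla2a (0.37) were not past the threshold. Without cells of a second class those of Ifi209 (-0.50) and Dda1 (0.54) were not.

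In B cells, Fcer2a and Vpreb3 were higher in the combination, and Fcrl5 was lower. Counts were 82 genes higher (2.46%) and 60 lower (1.80%). Fcer2a, which encodes CD23 of follicular B cells, was at 152 CPM in the combination and 51.1 CPM in the LTβR agonist library (log2 ratio 1.41), with a UMI in 44.7% and 19.7% of cells. Vpreb3, expressed in immature and germinal centre B cells, was at 114 and 34.8 CPM (1.47). Both were higher, and Snx29 (321 and 116 CPM), Pxdc1 (59.0 and 15.2 CPM) and Treml2 (64.8 and 20.7 CPM) completed the 5 highest ratios among broadly detected genes. Of 9 follicular B cell genes 2 were higher and 0 lower, the other being Ccr7, the receptor that guides cells to T cell zones (285 and 177 CPM). Cr2, which encodes CD21, was at 58.4 and 66.4 CPM and not called.

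Of 12 genes of B cell activation and the germinal centre 2 were higher and 1 lower in B cells. Cd69, the early activation marker, was at 293 and 185 CPM (log2 ratio 0.64), Egr3 at 59.0 and 32.6 CPM (0.69) and the costimulator Cd80 at 80.7 and 128 CPM (-0.61). Bcl6, the master factor of germinal centre cells, was at 64.8 and 53.3 CPM (0.24, counting interval -0.28 to 0.77) and not called. Fos (370 and 208 CPM) and Fosb (213 and 122 CPM) were among 3 of 12 immediate early genes that were higher, and Socs1 was at 91.1 and 43.5 CPM (0.92). Of 12 glycolysis and hypoxia genes 4 were higher, including Tpi1 (136 and 80.5 CPM), Aldoa (472 and 296 CPM) and Pkm (346 and 218 CPM). Ciita, the activator of MHC class II genes, was at 163 and 103 CPM (0.61), Cxcr4 at 320 and 208 CPM (0.60) and the chromatin organiser Satb1 at 606 and 354 CPM (0.76). With thinned cells the ratios of Egr3 (0.21), Satb1 (0.43), Cxcr4 (0.41), Tpi1 (0.39) and Pkm (0.22) were below the threshold. Without cells of a second class Socs1 (0.51), Fosb (0.24) and Ccr7 (0.41) were, and without the 10 highest cells Cd80 (-0.11) and Id2 (-0.31). The last of these cuts was unequal, because the LTβR agonist library held fewer B cells.

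Among genes lower in B cells of the combination, Fcrl5, an Fc receptor-like protein of marginal zone and memory cells, was at 92.7 and 177 CPM (log2 ratio -0.87), and Fcgr2b, the inhibitory IgG receptor, at 151 and 248 CPM (-0.68), or -0.28 with thinned cells. Id2, an inhibitor of helix-loop-helix factors, was at 85.9 and 139 CPM (-0.64), and the lowest ratios among broadly detected genes further included Cacna1e, a calcium channel subunit (143 and 339 CPM), Zc3h7a (897 and 1666 CPM), Ypel2 and Gm47283 (60.3 and 159 CPM). In the LTβR agonist library 47.7% of Zc3h7a UMIs lay in 10 of the 157 cells, and without the 10 highest cells of either library its ratio was -0.31. That cut took a larger part of the 157 cells than of the 497 of the combination, and tends to raise ratios in B cells. The small number of B cells in that library set the precision of all these values. Cells with 2 markers of a second class were 30.8% and 35.7% of B cells, and without them 122 genes were lower, against 60 with them.

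In DCs, glycolysis genes, immediate early genes and 2 genes of MHC class II presentation were higher in the combination. From 112 and 192 cells, 115 genes were higher (3.35%) and 103 lower (3.00%). Of 11 MHC class II presentation genes 2 were higher, H2-Oa (180 and 74.5 CPM) and H2-DMb2 (332 and 153 CPM), and the list's median was 0.53. Without cells with 2 markers of a second class 6 of 11 were higher. H2-Ab1 was at 5995 and 4157 CPM and Cd74, the invariant chain, at 17590 and 12496 CPM, both short of 1.5-fold. Of 15 glycolysis and hypoxia genes 7 were higher and 0 lower (median 0.57), among them Tpi1 (401 and 187 CPM), Mif (906 and 452 CPM), Bnip3 (94.2 and 41.5 CPM) and the glucose transporter Slc2a1 (93.4 and 43.0 CPM). Immediate early genes were higher in 6 of 12, including Egr1 (79.4 and 31.0 CPM), Fosb (208 and 112 CPM) and Junb (1181 and 731 CPM). The cathepsin Ctsc (299 and 143 CPM) and Eno1b (77.9 and 29.9 CPM) were, with H2-Oa, H2-DMb2 and Tpi1, the 5 highest ratios among broadly detected genes. With thinned cells Egr1 (0.33), Junb (0.38), Eno1b (0.50), Mif (0.55) and Bnip3 (0.56) were below the threshold.

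The interferon-γ-responsive genes Cxcl9, Iigp1 and Gbp2 were higher in DCs as in macrophages and monocytes, from few cells. Cxcl9 was at 301 CPM in the combination and 71.4 CPM in the LTβR agonist library (log2 ratio 1.94), with 80.9% and 85.3% of its UMIs in 10 cells. Iigp1 was at 81.8 and 28.9 CPM and Gbp2 at 266 and 134 CPM, the called 2 of 6 interferon-γ-induced GTPases, and both ratios fell below the threshold without the 10 highest cells (0.47 and 0.29). Ltb, which encodes the ligand subunit of LTβR, was at 97.3 and 31.0 CPM (1.39). On the lower side, 4 of 6 members of the list for costimulators of T cells were lower. They were the cytokine receptor subunits Il2ra (17.9 and 61.9 CPM) and Il12rb2 (56.8 and 117 CPM), and Tnfrsf4 (45.9 and 80.8 CPM) and Tnfrsf9 (104 and 174 CPM). Mature DCs, which carry several of these receptors, were 39.3% of DCs in the combination and 43.2% with the LTβR agonist. Ccl22, a chemokine of mature DCs and part of the DC gate, was at 326 and 495 CPM, and Cd80 at 234 and 362 CPM. The lowest ratios among broadly detected genes were those of Cdk6 (18.7 and 73.5 CPM), Sfmbt1, Mir155hg, the host transcript of miR-155 (44.4 and 143 CPM), Gm13546 and Ktn1 (161 and 375 CPM). With thinned cells Mir155hg was at -0.53 and Cd80 at -0.43.

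Neutrophils were compared on 60 cells and 150532 UMIs in the combination against 341 cells and 952641 UMIs with the LTβR agonist, so that counting error was largest here. Cells with 2 markers of a second class were 36.7% of neutrophils in the combination and 37.8% with the LTβR agonist. The 6 macrophage and monocyte markers summed to 3282 and 3753 CPM in neutrophils of the 2 libraries. Higher genes numbered 157 (5.82%) and lower genes 144 (5.34%). Interferon-γ-induced GTPases were higher in 6 of 8 (median log2 ratio 1.06), led by Gbp5 (585 and 139 CPM) and Gbp2 (1030 and 314 CPM), and Irf1 was at 1050 and 529 CPM. Igtp (233 and 96.6 CPM) and Ifi47 (419 and 184 CPM) were called as well. Between 67.7% and 88.6% of the UMIs of these 5 genes in the combination lay in 10 of the 60 cells, and without the 10 highest cells of each library none of them was past the threshold, with log2 ratios of 0.40 for Gbp5, 0.18 for Gbp2, 0.09 for Irf1, -0.60 for Igtp and -0.24 for Ifi47. Those 10 cells were a larger part of the 60 cells than of the 341. The cut was thus unequal and tends to lower the ratios of higher genes, so it cannot decide whether these genes differed. Irf7, a factor that amplifies interferon production, was at 332 and 159 CPM, with a log2 ratio of 0.20 without the 10 highest cells. Of 29 type I interferon-stimulated genes 5 were higher, Irf7 among them, and 1 was lower, Rsad2, at a log2 ratio of -0.60. Wfdc17, a secreted protein with a whey acidic protein domain, was at 784 CPM in the combination and 4521 CPM with the LTβR agonist (-2.51), detected in 33.3% and 76.5% of cells. Ifitm1 was at 1488 and 4617 CPM (-1.63), Socs3, which restrains STAT3, at 359 and 811 CPM (-1.16), Hsp90aa1 at 106 and 504 CPM and Jun at 266 and 663 CPM. Transcripts of immature granules were carried by few cells, with Ngp (66.4 and 1286 CPM) detected in 1.67% and 2.05% of cells and Ltf (33.2 and 450 CPM) in 5.00% and 4.40%.

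At these totals several low neutrophil genes could not be measured in the combination. Mrps28, Tpp2 and Cstf3 had 0 UMIs there, where 3 counts in the library correspond to 19.9 CPM, and were at least 3.27-fold, 2.90-fold and 2.79-fold lower than with the LTβR agonist. Tgm1 had 1 UMI against 84. The highest ratios among broadly detected genes ran from Dennd4a (2079 and 1317 CPM, log2 ratio 0.65), Tnfaip2 (2059 and 1327 CPM), Fxyd5 (2312 and 1500 CPM) and Serf2 (1209 and 790 CPM) to Cxcr4, a receptor that retains neutrophils in the bone marrow (598 and 395 CPM, 0.59). Without the 10 highest cells these 5 ratios lay between 0.30 and 0.53, below the threshold, after the same unequal cut.

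γδ T cells, gated on Trdc and examined after seeing the data, had 115 and 98 cells. Of 3550 genes assessed, 3.41% were higher and 2.39% lower. Genes of the interleukin-17 programme were higher in 5 of 6. Il17a was at 1199 CPM in the combination and 659 CPM in the LTβR agonist library (log2 ratio 0.85), detected in 46.1% and 26.5% of cells, Il23r, the interleukin-23 receptor that sustains it, at 355 and 158 CPM (1.12), and the factor Maf at 278 and 127 CPM. Il1r1 was at 411 and 258 CPM. Il17a was thus higher in γδ T cells and lower in CD4 T cells of the combination. Immediate early genes were higher in 9 of 11 in γδ T cells, among them Fosb (236 and 80.3 CPM), Junb (2946 and 1623 CPM) and Fos (413 and 226 CPM).

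A few genes were called in several of the 8 classes. Socs1 was higher in 5 of 8 classes (macrophages and monocytes, Tregs, NK cells, B cells and neutrophils) and lower in 0. Klf2 was higher in 5 of 8, which were macrophages and monocytes, CD8 T cells, Tregs, NK cells and DCs. Areg was higher in all 4 classes where it was assessed. Its ratio was below the threshold with thinned cells in CD4 T cells (0.40) and without the 10 highest cells in Tregs (0.51). In CD8 T cells Areg had a UMI in 7.42% of cells of the combination and 5.52% with the LTβR agonist. There 10 cells held 48.2% and 66.4% of its UMIs. In macrophages and monocytes Socs1 and Klf2 kept ratios past the threshold in thinned cells and without the 10 highest cells, whereas at least 1 of these took Socs1 below it in Tregs (0.28), NK cells (0.43) and neutrophils (-2.73), and Klf2 in Tregs (0.19) and DCs (0.15). Gm47283, a predicted gene of unknown function, was lower in all 7 classes where it was assessed. Hspa1a was lower in 4 classes and higher in 2. Neutrophil transcripts in other classes moved in the same direction as the neutrophil share. The 6 neutrophil markers summed to 1.21 CPM in CD8 T cells of the combination and 147 CPM in those of the LTβR agonist library, to 8.44 and 64.2 CPM in CD4 T cells, to 28.9 and 99.0 CPM in B cells, and to 75.8 and 124 CPM in macrophages and monocytes. Their part in the results of those classes was not tested.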

How the data were processed

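Live CD45-positive cells of the tumours were profiled with the 10x Genomics 5′ chemistry. The authors deposited 1 matrix of UMI counts per gene and cell for all 4 libraries, made with Cell Ranger 7.1.0 on the mouse genome mm10 per the labels and the study's methods. Of the single-cell experiments the study describes, the one that gave these libraries is not given in the sources used here. Removal of doublets is not stated either, and no doublet caller was run. Tumours of a group were pooled, so that each group was 1 library.

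From the 32285 genes, 635 antigen receptor segments were left out. A cell joined a class when at least 2 of its markers had a UMI and more of them than of any other class. T cells were split by Cd8a, Cd8b1, Cd4 and Foxp3. Members, classes and gene lists were chosen with earlier results of these data known, and γδ T cells and the 2 macrophage and monocyte subsets were compared after the values had been seen. Genes used in a gate were not taken as results of that class, apart from the values given for Ccl22 in DCs and Mrc1 in Ly6c2 monocytes. The gate bears on both of these values. Poisson intervals for CPM and Clopper-Pearson intervals for shares were exact at the 95% level, and the interval of a ratio was formed from opposite bounds. Where a library had 0 UMIs, the limit was set at 3 counts in that library.

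Named genes were the 5 highest and 5 lowest ratios of each class with a UMI in at least 20 cells of the higher library and at most 50% of that library's UMIs in its 10 highest cells, up to 4 called members of each list, Tmem173 and Ltbr, with uncalled members of described lists. Genes said to be named after their values were seen stand outside that rule, as do the other genes given for the 2 subsets and for γδ T cells. Scripts were tested on simulated data and used Python 3.11.15, numpy 2.4.6, scipy 1.17.1 and pandas 2.3.3. Values of a few genes are not reported here.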

Additional observations from a re-analysis of the deposited data

Results flagged for a closer look

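The log2 ratio of the combination over the LTβR agonist and that of the STING agonist over untreated come from 4 separate libraries, and for the following genes and 1 class both were past 1.5-fold in opposite directions. With 1 library a group, none of these differences was tested. In CD4 T cells Il1rl1 was at 1.47 with and -1.38 without the LTβR agonist as background, Il4 at 0.73 and -0.86, Cxcr3 at -0.67 and 0.79, Il17a at -2.84 and 0.59, and Hspa1a at -2.79 and 0.61. Hspa1a was also at -1.29 and 0.84 in macrophages and monocytes. In CD8 T cells Areg was at 1.01 and -1.26, and in NK cells Gzmb was at 0.60 and -0.93. In Tregs Ifit3 was at -1.64 and 1.33 and Ifit1 at -1.31 and 1.08. The neutrophil share had a ratio of 0.236 for the combination over the LTβR agonist and 2.47 for the STING agonist over untreated. Within neutrophils Wfdc17 was at -2.51 and 0.77, Ngp at -4.08 and 0.95, Ltf at -3.41 and 0.78, Socs3 at -1.16 and 0.78, and Tgm1 at -2.56 and 1.29. Some ratios of the combination over the LTβR agonist were not past 1.5-fold in other settings. With thinned cells Ifit1 in Tregs was at -0.20 and Ltf in neutrophils at -0.36. Il4 in CD4 T cells was at 0.14 without cells of a second class. Without the 10 highest cells Gzmb in NK cells was at 0.36 and Ngp in neutrophils at 0.00.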

How the results depend on the processing

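No paired analysis was possible because each group was 1 library, and no library could be left out of a group. Over the lymphocyte classes alone the share ratio was 3.16 for B cells, 0.964 for T cells and 0.557 for NK cells, and over the myeloid classes alone 1.08 for macrophages and monocytes. Counts of genes past 1.5-fold depended most on the pseudocount and the filter. They are given as higher and lower in turn. With a pseudocount of 50 CPM they were 11 and 10 in macrophages and monocytes, 15 and 18 in CD8 T cells, 24 and 78 in CD4 T cells, 27 and 55 in Tregs, 11 and 7 in NK cells, 28 and 21 in B cells, and 49 and 25 in DCs. With 10 UMIs as the only filter they were 40 and 36, 51 and 153, 163 and 347, 128 and 199, 103 and 92, 163 and 144, and 185 and 222 in the same order. With a pseudocount of 1 CPM NK cells had 43 and 46. With cells thinned to 1000 UMIs the counts were 22 and 64 in CD4 T cells, 12 and 16 in Tregs, 25 and 31 in B cells, 19 and 14 in DCs, and 48 and 69 in neutrophils, and macrophages and monocytes had 34 lower. Without cells carrying 2 markers of a second class, 61 genes were lower in Tregs and 122 in B cells, and neutrophils had 87 and 94. A gate of 3 markers gave 49 and 65 in Tregs, the mean of CPM per cell 41 lower in NK cells, and all barcodes 59 lower in DCs. After seeing the data, C1q macrophages alone were found to have 59 and 42 and Ly6c2 monocytes 38 lower.

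Directions turned for a few genes. In Ly6c2 monocytes alone the log2 ratios were -0.04 for Ccl8, -0.26 for Chil3 and -0.85 for Mrc1. In CD4 T cells Il13 was at 1.27 and Penk at 1.22 without their 10 highest cells, Penk at 0.05 as a mean of CPM per cell, and H2-Ab1 at 0.02 without cells of a second class. In neutrophils without the 10 highest cells Igtp was at -0.60, Ifi47 at -0.24 and Socs1 at -2.73. The median of inflammatory macrophage effectors in Tregs was 0.12, and that of MHC class II genes in neutrophils 0.04, without cells of a second class. The causes were not tested. Setting the median of assessed genes to 0 shifted each of the 214 gene values by at most 0.07. Of 192 called gene values, 45 were no longer past 1.5-fold with thinned cells, 18 without cells of a second class and 37 without the 10 highest cells. The last setting took the same number of cells from each library, and thus a larger part of the library with fewer cells of a class. It moves ratios most in neutrophils and B cells, where cell numbers differed most.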

Other observations

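Of 8 complement genes assessed in macrophages and monocytes 0 were called, with a median log2 ratio of 0.45, and Apoe, a lipid carrier, was at 1807 CPM in the combination and 1313 CPM with the LTβR agonist and was not called. The C1q macrophages, whose gate uses C1q genes, made up a larger part of that class in the combination. Within them Ccl5 was at 707 and 264 CPM (log2 ratio 1.39), and 4 of 9 heat shock genes were lower. Within DCs, cDC1, the cells that cross-present antigen, were 28.6% (32 of 112 cells) in the combination and 34.4% (66 of 192 cells) with the LTβR agonist, with a ratio of 0.831 whose interval ran from 0.492 to 1.37.

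In γδ T cells 4 of 8 cytotoxic effectors were lower and 1 was higher, beside the higher interleukin-17 genes. Type I interferon-stimulated genes in CD4 T cells had a median log2 ratio of -0.03 for the STING agonist over untreated, next to -0.88 for the combination over the LTβR agonist, and the difference was not tested.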
